A study of Mus musculus with 6 samples.

Results

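The genes examined were 10 members of the NF-kB system, picked by gene symbol: the subunit genes Nfkb1, Nfkb2, Rela and Relb, and the inhibitor and regulator genes Nfkbia, Nfkbib, Nfkbie, Nfkbiz, Bcl3 and Tnfaip3. All 10 were found among the 17254 gene identifiers of the deposited tables, and all 10 passed the filter on low counts. The cells were mouse neural stem/progenitor cells, kept in culture with EGF and bFGF in N2 medium. They were split into 3 groups of 2 libraries each, named control, PQ and NAC in the labels, and the treatments lasted 48 h. According to the series text the treatments were meant to shift the redox potential inside the cells. Strain, age and dose are absent from the labels, which also leave PQ and NAC as abbreviations and are silent on whether replicate libraries were separate cultures. If they were not, the p-values reflect technical spread only.

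NF-kB proteins are transcription factors that act as pairs of Rel-family subunits. In resting cells the classical IkB proteins hold these pairs in the cytoplasm. Signals from cytokine and innate immune receptors activate the IkB kinase complex, IkB is tagged and destroyed, and the freed pairs enter the nucleus. Among the genes they induce are their own inhibitors, which closes a feedback loop. NF-kB is known in neural progenitors for responses to injury and inflammation, and oxidants and thiols are known to influence its activity in many cell types. Messenger RNA levels do not measure that activity.

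The feedback loop is written in promoters, which hold short kB sites. The following windows, from RefSeq (GRCm38.p6), run from 250 bases before to 50 bases after an annotated start, and capitals mark matches to the NF-kB consensus on either strand. They are shown because Nfkbia and Tnfaip3 were the members that rose with both treatments, and Nfkb2 held the most matches of any member window but did not pass the test in any comparison. Nfkbia lies at chr12:55492598-55492897 and Tnfaip3 at chr10:19015361-19015660, both on the minus strand, and Nfkb2 at chr19:46304487-46304786 on the plus strand.
Nfkbia: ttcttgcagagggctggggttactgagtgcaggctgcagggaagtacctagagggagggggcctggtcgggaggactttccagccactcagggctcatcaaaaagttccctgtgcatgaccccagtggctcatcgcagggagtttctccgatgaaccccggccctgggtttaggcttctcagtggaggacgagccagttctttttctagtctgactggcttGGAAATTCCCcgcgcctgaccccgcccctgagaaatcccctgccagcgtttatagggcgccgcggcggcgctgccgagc
Tnfaip3: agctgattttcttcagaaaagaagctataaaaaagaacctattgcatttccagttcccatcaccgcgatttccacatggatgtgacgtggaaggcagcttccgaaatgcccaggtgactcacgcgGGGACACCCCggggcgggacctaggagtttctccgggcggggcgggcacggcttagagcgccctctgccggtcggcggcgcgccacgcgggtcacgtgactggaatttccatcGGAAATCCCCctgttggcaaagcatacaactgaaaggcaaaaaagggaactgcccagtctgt
Nfkb2: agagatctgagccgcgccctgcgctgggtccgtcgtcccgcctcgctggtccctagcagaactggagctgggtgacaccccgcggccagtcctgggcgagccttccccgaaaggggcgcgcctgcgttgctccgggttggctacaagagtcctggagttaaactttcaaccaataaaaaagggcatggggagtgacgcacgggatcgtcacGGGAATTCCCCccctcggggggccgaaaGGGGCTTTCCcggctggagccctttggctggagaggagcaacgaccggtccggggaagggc

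The Nfkbia window held 1 match, GGAAATTCCC, at bases -29 to -20 from the start. The Tnfaip3 window shown held 2, GGGACACCCC at -125 to -116 and GGAAATCCCC at -12 to -3. Another Tnfaip3 window, at chr10:19011914-19012213, held 0. The Nfkb2 window shown held 3, of which GGGAATTCCC and GGAATTCCCC overlap by all but 1 base and the third is GGGGCTTTCC at -11 to -2. Of the 7 members with a window in the RefSeq table, 5 (Nfkbia, Tnfaip3, Nfkb2, Nfkbie and Bcl3) had a match in at least 1 window, and Rela and Nfkbib had none. Among all 27025 genes with such windows, 9.55% had a match. The narrower pattern GGGANNTTCC, searched on both strands and itself a special case of that consensus, occurred in 1.63% of genes, with the Nfkbia site and sites in the other two Nfkb2 windows among its matches. A match is a description of the sequence and does not show that a factor bound there.

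The libraries held 9680436 to 10698241 summed expected counts, and 12813 genes were tested. Pairs of libraries within a group were not identical beyond sampling (chi-square over its degrees of freedom, 3.97 to 6.62), and pairs across groups were further apart (14.21 to 35.8). All 8 listed neural stem or progenitor markers were present in every library, with Nes at 466.3 to 719.1 CPM (library-scaled counts, normalized by TMM) and Sox2 at 295.5 to 413.4 CPM. Their summed level, most of it Vim, was 6184.4 to 6282.4 CPM in control, 6573.9 to 6847.7 with PQ and 4466.5 to 4537.0 with NAC. The 8 did not move as a set. Vim was at 4305.7 and 4058.0 CPM in control, 4871.4 and 4594.1 with PQ, and 2466.7 and 2488.7 with NAC. Slc1a3 went the other way, at 396.2 and 460.1, 315.0 and 299.1, and 529.1 and 520.0 CPM in the same order. Of 15 microglia or blood cell markers, 12 were under 1 CPM in all libraries, and Tyrobp and C1qc were at 0 in all of them. The summed level of these 15 was 7.17 to 7.18 CPM in control, 11.6 to 11.8 with PQ and 11.0 to 12.9 with NAC, mostly P2ry12, Cx3cr1 and Cd68. The endothelial list summed to 81.9 to 87.0 CPM in control, 106.9 to 123.6 with PQ and 86.0 to 105.6 with NAC, nearly all of it Flt1, while Cldn5 was at 0 throughout. The fibroblast or pericyte list was at 30.9 to 31.9, 19.7 to 24.3 and 25.2 to 28.8 CPM in the same order, most of it Col3a1. The part of these marker levels in the results below was not tested.

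Per unit of transcript length, the nuclear IkB genes were the most abundant members in control cells and Relb and Nfkbie the least. Nfkbiz, whose protein IkB-zeta works with NF-kB in the nucleus as a cofactor, stood at 63.92 and 75.55 FPKM (fragments per kilobase of transcript, scaled to library size) in the control libraries. Bcl3, a nuclear IkB that partners with homodimers of the small subunits, followed at 52.32 and 44.66 FPKM, and Nfkbia at 34.85 and 39.56 FPKM. Then came Rela (25.27 and 23.44), Nfkb2 (17.94 and 16.93), Nfkb1 (13.32 and 11.57), Tnfaip3 (10.94 and 11.89), Nfkbib (10.32 and 8.48), Relb (5.84 and 6.14) and Nfkbie (3.94 and 3.56 FPKM). Of the neighbours in this order, Nfkb1 and Tnfaip3 overlapped in their control libraries, and the libraries of each other pair of neighbours stood apart, with 2 libraries per gene. With NAC, Nfkbia stood at 66.38 and 64.77 FPKM, above Bcl3 at 49.79 and 64.14 FPKM, and with PQ the ranges of these genes overlapped (53.85 and 61.14 against 56.41 and 55.09 FPKM).

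**Figure D1:**
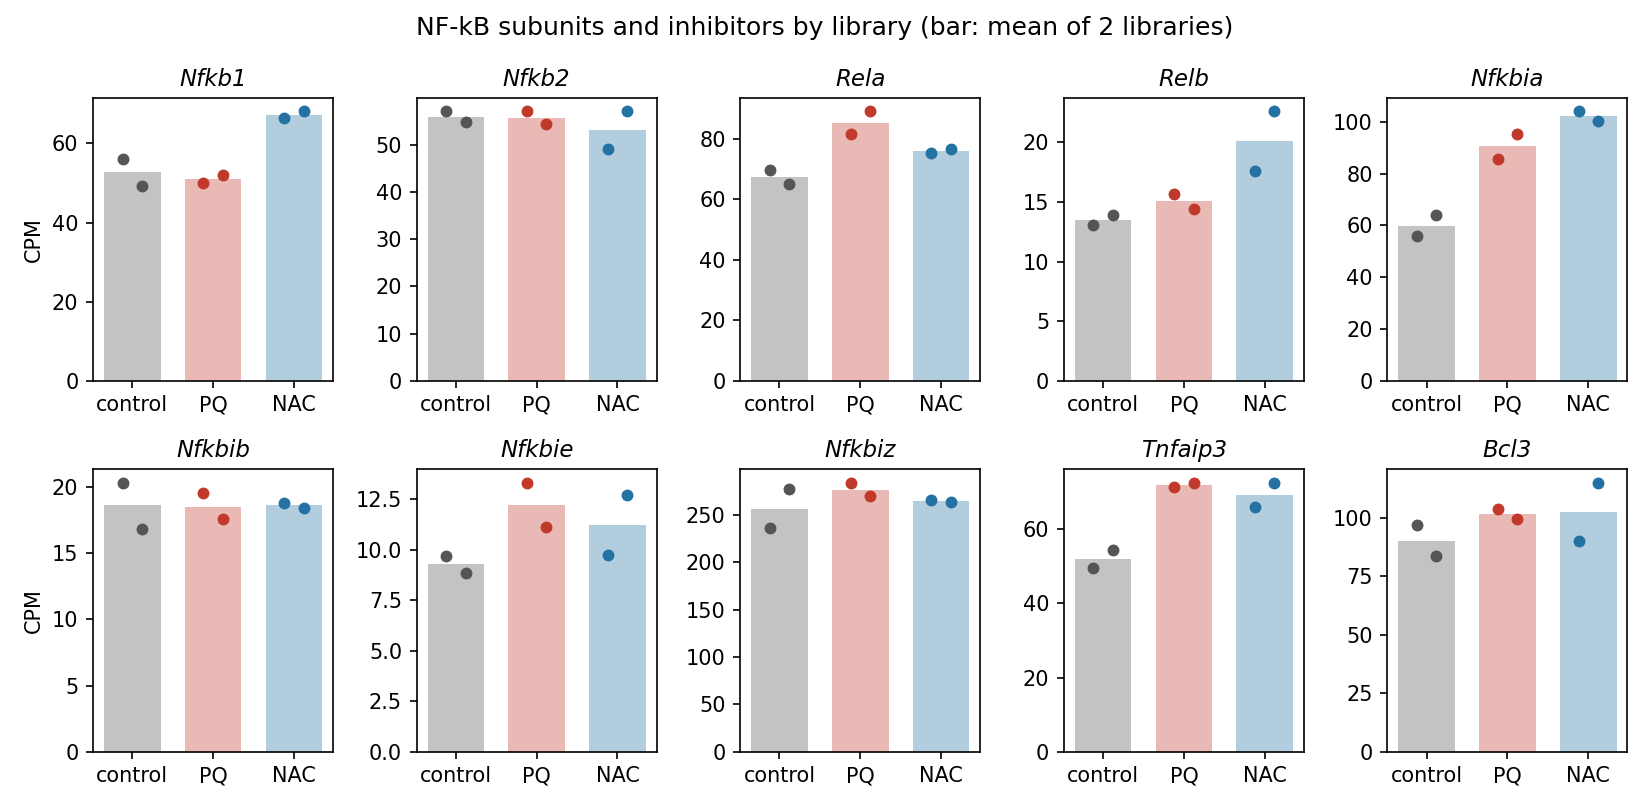
Level of each of the 10 genes in CPM (vertical axis, from 0) in the control, PQ and NAC groups, with 1 point per library and a bar at the mean of 2 libraries. The Nfkbia points of both treatments lie at 85.7 CPM or more, above the control points at 55.9 and 64.0 CPM, while the Nfkb2 and Nfkbib points of the 3 groups overlap.

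With PQ, 3 of the 10 genes rose against control and 0 fell: the inhibitor genes Nfkbia and Tnfaip3 and the subunit gene Rela. Over all tested genes edgeR called 9.07% higher and 8.8% lower in this comparison. None of the 10 was lower at an unadjusted p under 0.05 either (0 genes), nor with DESeq2 (0) or limma on FPKM (0). Without PQ replicate 2, 1 gene was called (Nfkbia), and without control replicate 2 there were 2. The median log2 fold change of the 10 genes was 0.16, beside -0.002 over all genes tested. Because the samples are bulk RNA, more cells expressing a gene and more RNA per cell cannot be told apart.

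With NAC, 4 of the 10 rose against control and 0 fell: Nfkbia, Tnfaip3 and the subunit genes Nfkb1 and Relb. Here edgeR called 8.65% of all genes higher and 9.26% lower. With library size as the only scaling those 2 sides were 1392 and 986 genes, in place of 1108 and 1186, and still 4 of the 10 were called higher. The count of lower members was 0 at an unadjusted p under 0.05, 0 with DESeq2 and 0 with limma on FPKM. Their median log2 fold change was 0.23, beside -0.002 over all genes. DESeq2 called 2 of the 4, Nfkbia and Tnfaip3, as did edgeR without control replicate 1 (Nfkb1 and Nfkbia). Without NAC replicate 2 the number was 1, Nfkbia.

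Between the treatments, 1 of the 10 differed: Nfkb1 was lower with PQ than with NAC. In that comparison 15.5% of all genes were called higher and 15.1% lower with PQ. Without PQ replicate 1 no member differed (0), and without NAC replicate 1 or either control library Relb was called beside it, which makes 2. The count of members higher with PQ was 0 (0 at an unadjusted p under 0.05, 0 with DESeq2 and 0 with limma on FPKM). The comparisons against control share the control libraries, so their values are given side by side and not as separate evidence.

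**Figure D2:**
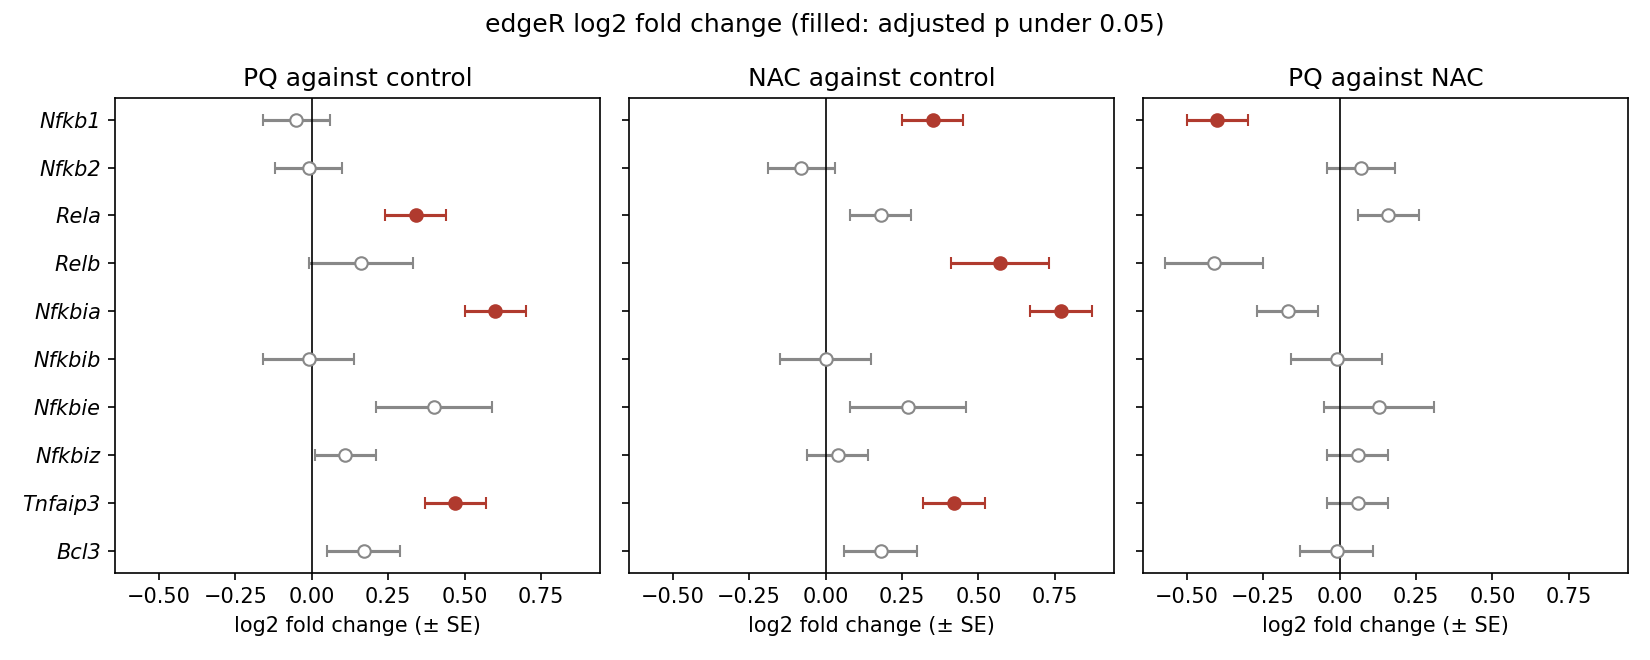
Log2 fold change (horizontal axis) of each gene in the 3 comparisons, with bars for the standard error of the edgeR fit over 6 libraries and filled points where the adjusted p is under 0.05. Nfkbia has the largest change in both comparisons with control, 0.60 with PQ and 0.77 with NAC, and Nfkb1 is the filled point of PQ against NAC at -0.40.

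Among the subunits, Rela (chr19:5637442-5648134, GRCm38.p6) encodes the transactivating partner of the classical NF-kB pair. It stood at 69.6 and 65.1 CPM in control, 81.5 and 89.1 with PQ, and 75.5 and 76.8 with NAC. All 4 treated libraries were above both controls, and the PQ libraries were above the NAC libraries. The PQ difference was a 1.27-fold rise (log2 fold change 0.34 ± 0.10, SE, edgeR adjusted p = 0.024). That call was lost with limma on FPKM and no filter (adjusted p = 0.0687). It was also lost without PQ replicate 2 or control replicate 2 (log2 fold changes 0.27 and 0.29). The NAC difference of 0.18 ± 0.10 did not pass (edgeR adjusted p = 0.25), nor did PQ against NAC (0.16 ± 0.10, adjusted p = 0.23).

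Nfkb1 (chr3:135584655-135691969, GRCm38.p6) encodes the precursor of the small DNA-binding subunit of the classical pair. Its levels were 56.2 and 49.2 CPM in control, 50.1 and 52.0 with PQ, and 66.5 and 68.1 with NAC. The NAC libraries were above the other 4, and the PQ libraries lay between the 2 controls. With NAC it rose 1.28-fold (0.35 ± 0.10, edgeR adjusted p = 0.025), and with PQ the log2 fold change was -0.05 ± 0.11 (adjusted p = 0.81). The direct comparison of PQ with NAC gave -0.40 ± 0.10 (edgeR adjusted p = 0.0074), which was lost only without PQ replicate 1 (adjusted p = 0.067) among the alternatives tried. The NAC call against control was less stable: it was lost with DESeq2 (adjusted p = 0.066) and with limma on FPKM and no filter (0.0794). It was also lost without control replicate 2, NAC replicate 1 or NAC replicate 2 (log2 fold changes 0.26, 0.37 and 0.34).

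Relb (chr7:19606217-19629438, GRCm38.p6), the transactivating subunit of the alternative pathway, was low in all libraries. It had 13.1 and 13.9 CPM in control, 15.7 and 14.4 with PQ, and 17.6 and 22.6 with NAC. The groups did not overlap, and the NAC libraries were the highest and the furthest apart. The NAC rise was 1.48-fold (0.57 ± 0.16, edgeR adjusted p = 0.019). It was lost with DESeq2 (adjusted p = 0.084) and with limma on FPKM and no filter (0.0879). It was also lost without NAC replicate 2 or control replicate 1 (log2 fold changes 0.38 and 0.53). The PQ change of 0.16 ± 0.17 did not pass (edgeR adjusted p = 0.58). PQ against NAC gave -0.41 ± 0.16 with an edgeR adjusted p of 0.055, and it passed without either control library (0.0341 and 0.0355) and without NAC replicate 1 (0.0277).

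Nfkb2 (chr19:46300994-46312400, GRCm38.p6) encodes the precursor of the small subunit that partners with RelB. It did not pass in any comparison, with 57.1 and 54.9 CPM in control, 57.1 and 54.4 with PQ, and 49.1 and 57.1 with NAC. The ranges of the 3 groups overlapped. Its log2 fold changes were -0.01 ± 0.11 with PQ, -0.08 ± 0.11 with NAC and 0.07 ± 0.11 for PQ against NAC (edgeR adjusted p = 0.98, 0.69 and 0.67). AC114539.1 and Psd on the other strand share 11.6% and 6.5% of its exonic bases, and strand use in the counting is not given in the sources used here.

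Of the classical inhibitors, Nfkbia changed most. It encodes IkB-alpha, which retains NF-kB in the cytoplasm and is a known early target of it. Counts were 553 and 616 in control, 824 and 1004 with PQ, and 1122 and 1014 with NAC, which is 55.9 and 64.0, 85.7 and 95.4, and 104.0 and 100.4 CPM. Every treated library was above both controls, and both NAC libraries were above both PQ libraries. The rise was 1.51-fold with PQ (0.60 ± 0.10, edgeR adjusted p = 0.00069) and 1.71-fold with NAC (0.77 ± 0.10, edgeR adjusted p = 3.8e-05). Both calls held in all 14 alternatives, with adjusted p between 2.8e-06 and 0.036 for PQ and between 1.6e-10 and 0.016 for NAC. The difference between the treatments was -0.17 ± 0.10 and did not pass (edgeR adjusted p = 0.21). The gene lies on chromosome 12 from 55489409 to 55492647 (GRCm38.p6), and no other annotated exon overlaps its own.

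Nfkbib and Nfkbie encode IkB-beta and IkB-epsilon, the other classical inhibitors. Nfkbib stood at 20.3 and 16.8 CPM in control, 19.5 and 17.6 with PQ, and 18.8 and 18.4 with NAC. Its groups overlapped, and its log2 fold changes were -0.01 ± 0.15 with PQ and 0.00 ± 0.15 with NAC (edgeR adjusted p = 0.99 for both). Nfkbie was the lowest member, at 9.70 and 8.83 CPM in control, 13.3 and 11.1 with PQ, and 9.73 and 12.7 with NAC. All its treated libraries were above both controls, but the PQ change of 0.40 ± 0.19 did not pass after adjustment (edgeR unadjusted p = 0.048, adjusted p = 0.16), nor did NAC (0.27 ± 0.19, adjusted p = 0.36). Exons on the other strand cover 14.5% of Nfkbib, from Ccer2, and 1.9%, from Sirt2.

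The nuclear IkB genes, the most abundant members in control cells, did not pass in any comparison. Nfkbiz was at 235.4 and 277.4 CPM in control, 283.6 and 269.2 with PQ, and 265.8 and 262.8 with NAC. Both treated groups overlapped the control range, which was the widest of the 3. Its log2 fold changes were 0.11 ± 0.10 with PQ and 0.04 ± 0.10 with NAC (edgeR adjusted p = 0.49 and 0.80). Bcl3 was at 97.0 and 83.5 CPM in control, 103.9 and 99.4 with PQ, and 90.2 and 115.0 with NAC. The PQ libraries were above both controls and the NAC libraries lay on either side of the PQ libraries. For Bcl3, Gm16175 on the other strand shares 6.5% of the exonic bases. Its changes were 0.17 ± 0.12 with PQ and 0.18 ± 0.12 with NAC (edgeR adjusted p = 0.35 and 0.31).

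Tnfaip3 (chr10:19000910-19015410, GRCm38.p6) encodes A20, a ubiquitin-editing enzyme that shuts off signalling upstream of the IkB kinases and is itself an NF-kB target. It stood at 49.4 and 54.2 CPM in control, 71.2 and 72.4 with PQ, and 66.0 and 72.3 with NAC. All 4 treated libraries were above both controls, and the treated groups overlapped. The rise was 1.39-fold with PQ (0.47 ± 0.10, edgeR adjusted p = 0.004) and 1.33-fold with NAC (0.42 ± 0.10, edgeR adjusted p = 0.0086). The PQ call was lost without PQ replicate 2 (adjusted p = 0.053). The NAC call was lost with limma on FPKM and no filter (adjusted p = 0.0532). It was also lost without NAC replicate 2 or control replicate 1 (log2 fold change 0.35 in each). PQ against NAC was 0.06 ± 0.10 (edgeR adjusted p = 0.72).

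**Figure D3:**
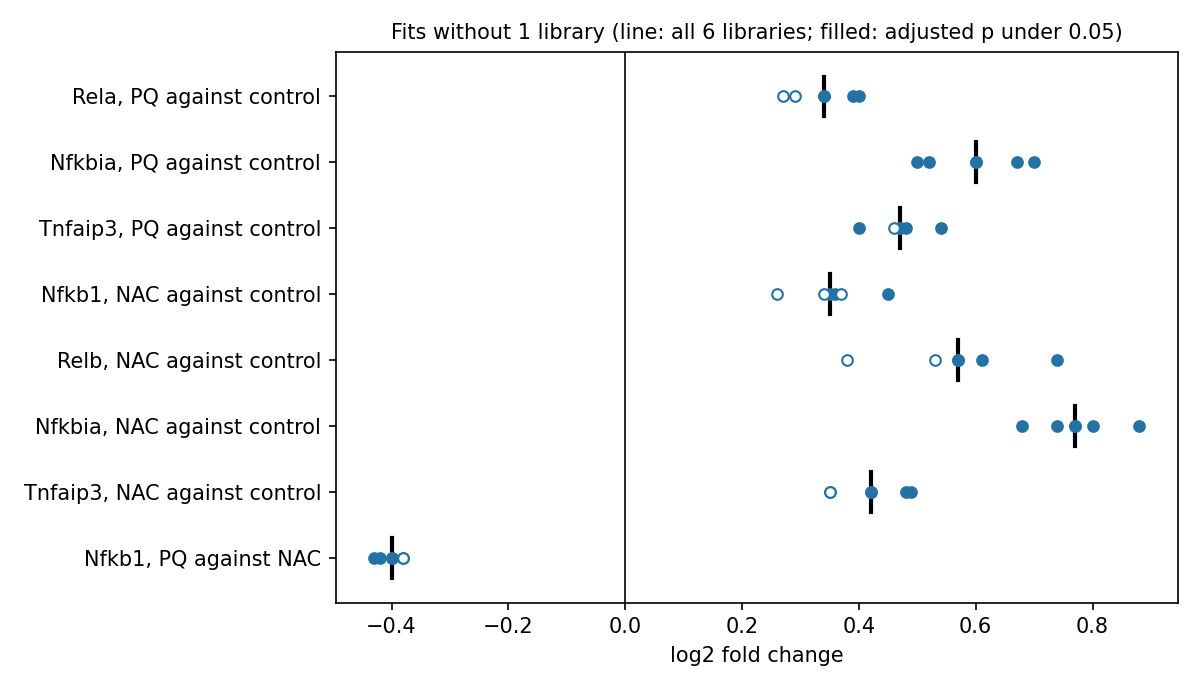
Log2 fold change (horizontal axis) of each of the 8 called differences when 1 of the 6 libraries is left out (points, filled where the edgeR adjusted p is under 0.05), beside the value from all libraries (vertical line). Nfkbia stays filled in every fit, between 0.50 and 0.70 for PQ and between 0.68 and 0.88 for NAC, and each of the other rows has at least 1 open point.

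Levels per length also showed how the members stood to one another within a library, in ratios picked after the values were seen and given with no test. The ratio of Nfkbia to Rela FPKM was 1.38 and 1.69 in control, 1.81 and 1.84 with PQ, and 2.37 and 2.25 with NAC. The ratio of Nfkb1 to Rela FPKM was 0.527 and 0.494 in control, 0.401 and 0.381 with PQ, and 0.575 and 0.579 with NAC. In both ratios the 3 groups did not overlap, and for Nfkb1 to Rela the treatments lay on opposite sides of control. A further ratio, Relb to Rela FPKM, was 0.231 and 0.262 in control, 0.236 and 0.199 with PQ, and 0.286 and 0.36 with NAC. There the control and PQ libraries overlapped. The classical IkB genes summed to 49.1 and 51.6 FPKM in control, 69.3 and 75.0 with PQ, and 80.2 and 79.8 with NAC, and Nfkbia made up most of each sum. The deposited transcript lengths of the genes listed with more than 1 transcript (Nfkb2, Nfkbiz and Tnfaip3) varied little between libraries, for Nfkbiz from 3567.18 to 3608.16 bases and for Tnfaip3 from 4395.87 to 4436.58 bases.

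The rest of the pathway was read from 89 genes in 5 lists, of which 87 were in a table and 74 were tested. With PQ 29 of the 74 rose and 0 fell (0 lower at an unadjusted p under 0.05 in edgeR, 0 with DESeq2 and 0 with limma on FPKM), with a median log2 fold change of 0.24. Leaving out PQ replicate 2 brought the higher calls to 13. With NAC 17 rose and 3 fell, with a median of 0.08, and 1 fell without NAC replicate 1. PQ was higher than NAC for 20 and lower for 3, with a median of 0.14, and 13 were higher without NAC replicate 1. The shares of all genes given above are the background for these counts, and the choice of the lists was made with earlier results of these data known.

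**Figure D4:**
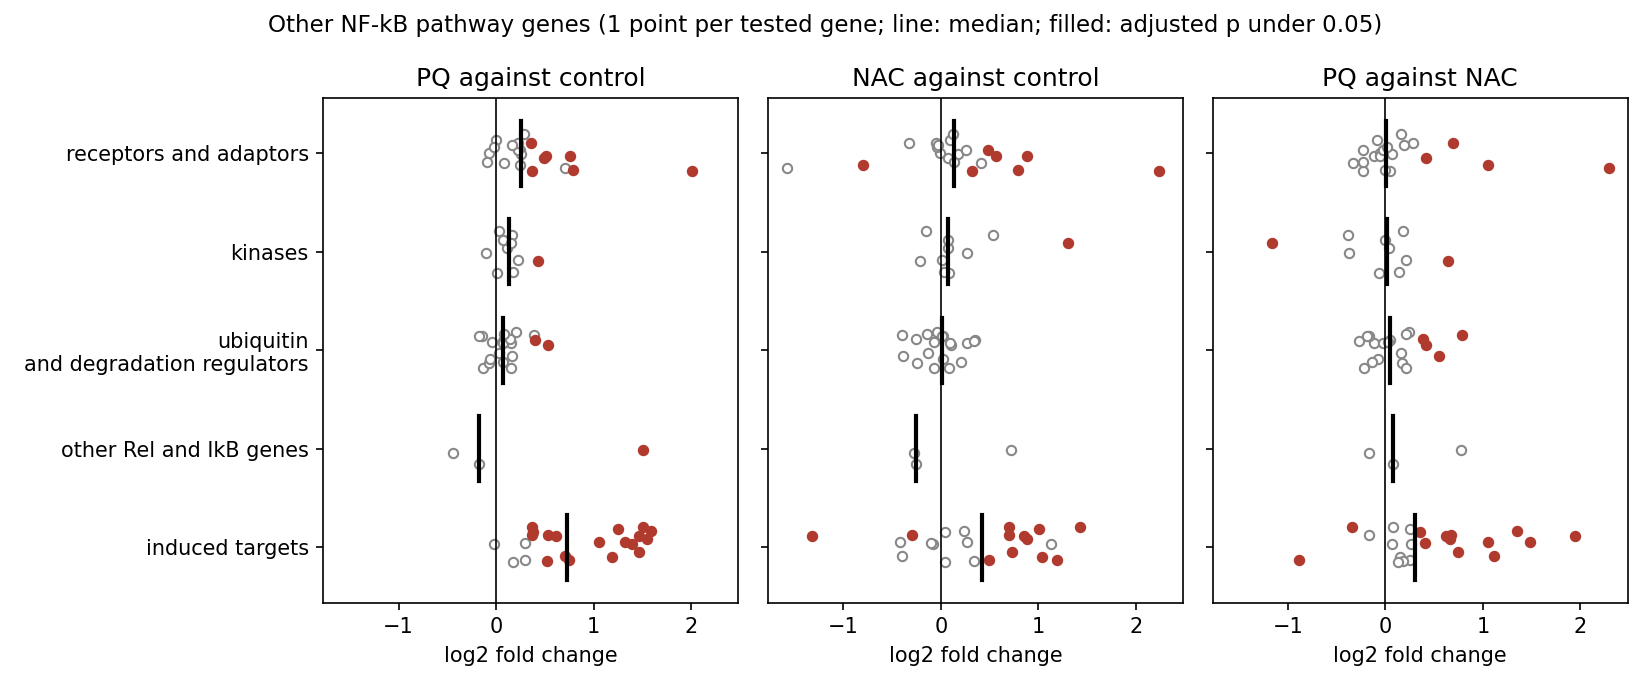
Log2 fold change (horizontal axis) of the 74 tested pathway genes by list in the 3 comparisons, with 1 point per gene, filled where the edgeR adjusted p is under 0.05, and a line at each list's median. The induced targets have a median of 0.73 with PQ, 0.42 with NAC and 0.30 for PQ against NAC, and the kinase medians lie between 0.02 and 0.13.

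Receptors and adaptors carry the signal from the membrane. Tlr3 and Il1rap share 7.3% and 4.9% of their exonic bases with genes on the other strand. With PQ 7 of 20 tested rose and 0 fell (edgeR; 0 lower at an unadjusted p under 0.05, 0 with DESeq2 and 0 with limma), and with NAC 6 rose and 1 fell. The shares of all genes called were 9.07% higher with PQ, and 8.65% higher and 9.26% lower with NAC. The 1 of 20 that fell with NAC is a smaller share than that of all genes. The innate receptor genes Tlr2 and Tlr3 rose with both, by 2.01 ± 0.26 and 0.76 ± 0.13 on the log2 scale with PQ and by 2.24 ± 0.25 and 0.88 ± 0.13 with NAC. Tlr2 was low, with 23 and 21 counts in control, 70 and 114 with PQ, and 119 and 104 with NAC. Myd88, the adaptor of most Toll-like and interleukin-1 receptors, rose by 0.79 ± 0.18 with each (edgeR adjusted p = 0.0052 and 0.0045). Its calls were lost without control replicate 2 (adjusted p = 0.063 and 0.057), and the PQ call also without PQ replicate 2 (0.074). Acaa1a on the other strand covers 11.3% of Myd88 exonic bases. Tnfrsf1a, the main TNF receptor, also rose with both, by 0.37 ± 0.09 with PQ and 0.32 ± 0.09 with NAC (edgeR adjusted p = 0.009 and 0.02). The PQ call was lost without PQ replicate 2 (adjusted p = 0.14), and the NAC call without control replicate 1 (0.0636), NAC replicate 1 (0.0653) or NAC replicate 2 (0.127). Il1rap, the interleukin-1 receptor accessory chain, rose by 0.48 ± 0.09 with NAC (edgeR adjusted p = 0.001), and its PQ change of 0.25 ± 0.09 did not pass (0.064). Tnfrsf1b, the other TNF receptor, fell with NAC (-0.80 ± 0.21, edgeR adjusted p = 0.014). That call was lost in each limma fit on FPKM (adjusted p = 0.0879, 0.0843 and 0.244). It was also lost without control replicate 1 or NAC replicate 1 (log2 fold changes -0.47 and -0.48). Tnfrsf1b was higher with PQ than with NAC (1.05 ± 0.21, edgeR adjusted p = 0.00096), though not with limma on FPKM and no filter (0.0856). Tnfrsf12a, the receptor of the cytokine TWEAK, was also higher with PQ than with NAC (0.69 ± 0.11, adjusted p = 0.00015). So were the Toll-like receptor adaptor Ticam1 (0.42 ± 0.13, adjusted p = 0.017) and the receptor gene Cd40 (2.29 ± 0.55, adjusted p = 0.0039), the latter at no more than 1.69 CPM in any group mean. Both were lost with DESeq2 (adjusted p = 0.0611 and 0.0510) and without NAC replicate 1 (0.211 and 0.0619), and Ticam1 also without PQ replicate 2 (0.166). Against control, Tnfrsf12a and Ticam1 rose with PQ (0.36 ± 0.11 and 0.49 ± 0.13, edgeR adjusted p = 0.032 and 0.012). Both of these calls were lost without PQ replicate 2 (0.366 and 0.163) or control replicate 2 (0.0985 and 0.0517), and that of Tnfrsf12a also with DESeq2 (0.0878) and with the run of title numbers as a term (0.0539).

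Of 10 tested kinase genes 1 rose with PQ and 1 with NAC. These counts are near the shares of all genes called higher, 9.07% with PQ and 8.65% with NAC. Ikbkg, the regulatory subunit of the IkB kinase complex, went from 44.6 ± 0.869 to 60.1 ± 0.289 CPM with PQ (SD, n = 2), a log2 fold change of 0.43 ± 0.11 (SE, edgeR adjusted p = 0.0078, and 0.076 without PQ replicate 2). With NAC it did not pass (-0.21 ± 0.11, adjusted p = 0.20). It was also higher with PQ than with NAC (0.64 ± 0.11, edgeR adjusted p = 0.00016). G6pdx on the other strand shares 5.2% of the Ikbkg exons. Map3k8, a kinase that binds the Nfkb1 precursor protein, went from 6.36 ± 0.559 to 15.8 ± 0.482 CPM with NAC (1.31 ± 0.18, edgeR adjusted p = 4.8e-05). It was lower with PQ than with NAC (-1.16 ± 0.18, adjusted p = 7.8e-05). Map3k14, the kinase of the alternative pathway, did not pass with NAC (0.54 ± 0.20, edgeR adjusted p = 0.065), but did under library size only and with no filter on low counts (0.0449 and 0.0409). The IkB kinase relative Tbk1 had 0.22 ± 0.11 with PQ and 0.21 ± 0.11 for PQ against NAC, without passing (edgeR adjusted p = 0.17 and 0.14). Map3k7, which encodes the kinase TAK1, and Tab3, one of its partners, had 0.11 ± 0.09 and 0.17 ± 0.14 with PQ (adjusted p = 0.44 and 0.43). Tab1, another TAK1 partner, had 0.27 ± 0.16 with NAC and -0.37 ± 0.16 for PQ against NAC (adjusted p = 0.27 and 0.094), and the second passed without PQ replicate 2 (0.0392).

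Regulators that edit ubiquitin chains or act in IkB degradation formed the list with the smallest medians against control but for the other Rel and IkB genes (0.07 with PQ and 0.01 with NAC). Sharpin, of the linear ubiquitin ligase, and Tnip1, a partner of A20, were the 2 of 19 that rose with PQ (0.53 ± 0.14 and 0.40 ± 0.13, edgeR adjusted p = 0.017 and 0.038). That count is near the 9.07% of all genes called higher with PQ. DESeq2 called neither (adjusted p = 0.080 and 0.12). Both calls were lost without PQ replicate 2 (log2 fold changes 0.52 and 0.29) or control replicate 2 (0.52 and 0.35). That of Sharpin was also lost without PQ replicate 1 (0.54). The Tnip1 call was also lost with limma on log2(FPKM + 1), with and without the filter (adjusted p = 0.051 and 0.105). The run of title numbers as a term ended it too (edgeR adjusted p = 0.0630). Zc3h12a and Cul1, a scaffold of the ligase that marks IkB, did not pass with PQ (0.39 ± 0.16 and -0.18 ± 0.10, edgeR adjusted p = 0.097 and 0.26). The Zc3h12a change with PQ was larger, 0.61, without control replicate 2. With NAC edgeR called 0, with 2 higher and 2 lower at an unadjusted p under 0.05, and DESeq2 and limma on FPKM called 0 each. The smallest p in that comparison belonged to Cyld (-0.39 ± 0.14), the deubiquitinase gene Otud7b (0.27 ± 0.10), Tnip1 (0.35 ± 0.13) and Zc3h12a (-0.40 ± 0.17), with edgeR adjusted p of 0.061, 0.062, 0.071 and 0.11. Cyld and Zc3h12a passed without control replicate 1 (0.0447 and 0.0218), Cyld also with no filter on low counts (0.0484), and Otud7b and Tnip1 under library size only (0.0307 and 0.0454). Higher with PQ than with NAC were the deubiquitinase Cyld (0.55 ± 0.14), the ribonuclease gene Zc3h12a (0.79 ± 0.16), Sharpin (0.42 ± 0.14) and Nkiras2 (0.39 ± 0.14), with edgeR adjusted p of 0.0049, 0.001, 0.033 and 0.045. These 4 of 19 stand beside 15.5% of all genes called higher in that comparison. The Cyld difference was lost with limma on FPKM and no filter (adjusted p = 0.0851) and without PQ replicate 1 (log2 fold change 0.41). That of Sharpin was lost with DESeq2 and with limma on FPKM and no filter (adjusted p = 0.156 and 0.0521). It was also lost without any 1 PQ or NAC library (log2 fold changes 0.34 to 0.5). That of Nkiras2 was lost with DESeq2 (adjusted p = 0.140), library size only (0.0578) and each limma fit (0.0806, 0.0778 and 0.173). It was also lost without PQ replicate 1, PQ replicate 2 or NAC replicate 1 (log2 fold changes 0.47, 0.3 and 0.27). Nfkbid, a further nuclear IkB, rose with PQ from 1.13 ± 0.167 to 3.22 ± 0.145 CPM (1.51 ± 0.36, edgeR adjusted p = 0.0076), a call lost with DESeq2 (0.076), without PQ replicate 2 (0.078) and without control replicate 1 (0.054). With NAC Nfkbid did not pass (0.72 ± 0.40, adjusted p = 0.23), nor for PQ against NAC (0.78 ± 0.33, 0.078), where limma on FPKM called it (0.0253). The fifth Rel subunit gene, Rel, was at 4.00 ± 0.368 CPM in control and did not pass with PQ or NAC (-0.44 ± 0.30 and -0.27 ± 0.29, edgeR adjusted p = 0.34 and 0.57), nor did the IkB-like gene Nfkbil1 (-0.17 ± 0.17 and -0.25 ± 0.17, 0.54 and 0.35). Between the treatments Rel had -0.17 ± 0.30 and Nfkbil1 0.08 ± 0.17 (edgeR adjusted p = 0.71 and 0.77). On the other strand, Dnajc7 and Zfp385c share 8.0% and 1.8% of the Nkiras2 exonic bases. Atp6v1g2 and Gm16181 each share 8.2% of those of Nfkbil1, and A930035D04Rik shares 4.8% of those of Cul1.

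Induced targets had the highest medians of the 5 lists. With PQ 18 of 22 tested rose and 0 fell (edgeR; 0 lower at an unadjusted p under 0.05, 0 with DESeq2 and 0 with limma), with a median log2 fold change of 0.73. With NAC 10 rose and 2 fell, with a median of 0.42. Over all genes tested, edgeR called 9.07% higher with PQ, and 8.65% higher and 9.26% lower with NAC. The 2 of 22 that fell with NAC are near that last share. The chemokine gene Ccl2 and the lipocalin gene Lcn2 rose with both, by 1.55 ± 0.12 and 1.25 ± 0.12 with PQ and by 0.89 ± 0.12 and 1.01 ± 0.12 with NAC. So did the chemokine gene Cxcl10, by 1.47 ± 0.10 with PQ and 0.73 ± 0.10 with NAC (edgeR adjusted p = 1.4e-07 and 5.4e-05). Art3 on the other strand shares 5.9% of the Cxcl10 exonic bases. The cytokine gene Lif rose by 1.32 ± 0.14 with PQ (edgeR adjusted p = 5.7e-06), and its NAC change of 0.27 ± 0.15 did not pass (0.23). Gadd45b, a stress and growth arrest gene, went from 6.05 ± 0.408 CPM in control to 17.2 ± 3.04 with PQ and 16.3 ± 2.52 with NAC (1.51 ± 0.19 and 1.43 ± 0.19, edgeR adjusted p = 3.8e-05 for both). Nos2, the inducible nitric oxide synthase, fell with NAC from 33.2 ± 5.22 to 13.4 ± 4.08 CPM (-1.32 ± 0.18, edgeR adjusted p = 4.5e-05). With PQ it rose to 51.2 ± 7.99 CPM (0.62 ± 0.16, edgeR adjusted p = 0.011), a call lost with limma on FPKM (0.0533) and without control replicate 2 (0.0641) or PQ replicate 1 (0.143). The other that fell with NAC was the adhesion receptor gene Cd44 (-0.29 ± 0.09, adjusted p = 0.025), a call lost with library size as the only scaling (0.051), with limma on FPKM (0.0620), with the run of title numbers as a term (0.0564), and without control replicate 2 (0.11), PQ replicate 1 (0.0501) or either NAC library (0.071 and 0.19). With PQ Cd44 rose (0.37 ± 0.09, edgeR adjusted p = 0.0063), a call lost without either PQ library (0.0527 and 0.0609).

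Between the treatments, 11 of the 22 targets were higher and 2 lower with PQ than with NAC. These counts stand beside 15.5% of all genes called higher and 15.1% called lower. The 2 lower targets are a smaller share than that of all genes. Nos2 differed by 1.94 ± 0.18, Tnfaip2 by 1.48 ± 0.15, Lif by 1.05 ± 0.14 and Cd44 by 0.67 ± 0.09 on the log2 scale (edgeR adjusted p at most 1.5e-05). Cxcl10 and Ccl2 were higher as well, by 0.74 ± 0.10 and 0.66 ± 0.12 (edgeR adjusted p = 2e-05 and 0.00036). Against control Tnfaip2 rose with PQ (1.06 ± 0.15, edgeR adjusted p = 0.0001) and did not pass with NAC (-0.42 ± 0.17, 0.093). Gm40578 on the other strand shares 6.3% of the Tnfaip2 exonic bases. The complement gene C3 (-0.89 ± 0.19, adjusted p = 0.0014) and Junb, a subunit of AP-1 (-0.34 ± 0.11, adjusted p = 0.032), were lower with PQ than with NAC. Against control both rose with NAC (1.19 ± 0.20 and 0.70 ± 0.11, edgeR adjusted p = 0.00026 for both). With PQ C3 did not pass (0.30 ± 0.21, adjusted p = 0.37), and Junb rose by 0.37 ± 0.12 (adjusted p = 0.035), a call lost with limma on FPKM (0.0590), with the run of title numbers as a term (0.0502) and without any 1 control or PQ library (0.0547 to 0.210). The Junb difference was lost in each limma fit on FPKM (adjusted p = 0.0666, 0.0656 and 0.167). It was also lost without NAC replicate 2, PQ replicate 1 or PQ replicate 2 (log2 fold changes -0.13, -0.31 and -0.36). Prdx2 on the other strand shares 7.5% of the Junb exons. Targets below the filter included the cytokine genes Tnf, Il6 and Il1b, each with at most 2 counts in any library, and the adhesion gene Icam1, with at most 1. The counts of these 4, which were picked after they were seen, allow no comparison at this depth.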

How the data were processed

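Each library had 1 table of estimated (expected) counts and FPKM per gene, both made by the authors before they were deposited. Tools listed without roles in the submitters' processing notes were RSEM, Bowtie2 2.2.5 and HISAT2 2.0.4, with the build mm10. Genes missing from a table were set to 0. Identifiers were matched to RefSeq symbols (GRCm38.p6) for 17199 of 17254. The 55 without a symbol, holding 0.072% to 0.079% of counts, stayed in the fits. Deposited expected counts were rounded and tested with edgeR 4.0.16 (R 4.3.3): filterByExpr (minimum count 10, minimum total 15), TMM and a quasi-likelihood model of the 3 group means (6 libraries, 3 residual degrees of freedom). Benjamini-Hochberg adjustment ran over all 12813 genes, with a threshold of 0.05, and adjusted p without a named tool is edgeR's. SE is the absolute log2 fold change over the root of F. The edgeR fit was tried on simulated counts, for PQ against control only. Alternatives used DESeq2 1.42.0, library size only, no filter, a robust fit, limma 3.58.1 on log2(FPKM + 1) or log2(FPKM + 0.1), limma on log2(FPKM + 1) with no filter, the run of title numbers (8 to 10 against 11 to 13) as a term, and fits without each library. The labels name no batch and no pairs. The FPKM fold changes on that log2 scale understate changes of low genes. Exonic overlaps come from GENCODE (GRCm38). The 10 genes and the lists were chosen with earlier results of these data known. All 10 genes are named, and from each list the 4 genes of smallest p per comparison and any that passed where 5 or fewer did in a direction, with the calls of these genes in the other comparisons added after their values were seen.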

Additional observations from a re-analysis of the deposited data

How the results depend on the processing

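Of the 10 genes, Nfkbia kept its direction and its calls against control in all 14 alternatives tried, and each of the other 6 called differences was lost in at least 1. The number of genes called over the whole table was 2289 for PQ and 2294 for NAC, each against control, and 3926 between the treatments. In that order it was, with limma on log2(FPKM + 1) and no filter, 702, 972 and 2514, and without 1 library it ran from 829 to 2181, 1338 to 2157 and 2427 to 4442. Of the 10 genes, 1 to 3 were higher with PQ without 1 library. With NAC 2 were higher with DESeq2, 1 with limma on FPKM and no filter, and 1 to 4 without 1 library. Between treatments 2 were lower with PQ under library size only and with no filter on low counts, and 0 to 2 without 1 library. Of the 74 pathway genes, 15 were higher with PQ by limma on FPKM with no filter and 13 to 30 without 1 library. With NAC 5 were lower with no filter on low counts, 0 with limma on FPKM and no filter, and 1 to 4 without 1 library. Higher with PQ than with NAC were 13 by limma on FPKM with no filter and 13 to 20 without 1 library. The cause of these shifts was not tested. The run of title numbers as a term gave 1842, 1901 and 3485 called genes and ended no call among the 10. Among the named pathway genes it ended the calls of Tnip1, Tnfrsf12a and Junb with PQ and of Cd44 with NAC. Over all 74 pathway genes, 25 were higher with PQ under that term, in place of 29, so the named genes are not all that were lost. Limma on log2(FPKM + 1) with no filter also ended calls not listed as lost above. Among them were Myd88 with PQ and with NAC (adjusted p = 0.0728 and 0.066), Ikbkg with PQ (0.0716) and Ccl2 between treatments (0.055).

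Changes of sign were confined to differences that passed no test. Against control with PQ, Nfkb2 was 0.02 under library size only and in each of the 3 limma fits, and Nfkbib was 0.02 under library size only and 0.03 in those limma fits. Without 1 library, the log2 fold change with PQ ran from -0.14 to 0.05 for Nfkb1, -0.04 to 0.03 for Nfkb2, -0.13 to 0.14 for Nfkbib and -0.01 to 0.23 for Nfkbiz. With NAC it ran from -0.19 to 0.03 for Nfkb2, -0.12 to 0.15 for Nfkbib and -0.07 to 0.17 for Nfkbiz. For PQ against NAC it ran from -0.04 to 0.18 for Nfkb2, -0.09 to 0.06 for Nfkbib, -0.06 to 0.32 for Nfkbie, -0.01 to 0.12 for Tnfaip3 and -0.18 to 0.17 for Bcl3, and among other IkB and Rel genes -0.06 to 0.20 for Nfkbil1 and -0.48 to 0.10 for Rel. Depth limits Nfkbie and Relb most among the 10, with 85 to 128 and 130 to 228 counts per library. Where a left-out library leaves a group with 1, that library is assumed to vary like the others.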
